A study of Mus musculus with 6 samples.

Results

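The genes described here are 10 genes of the neutrophil granulocyte that encode surface receptors and granule or secreted proteins: Csf3r, Cxcr2 and Ly6g at the cell surface, Mpo and Elane of the azurophil granules, Ltf, Ngp, Camp and Lcn2 of the specific granules, and Retnlg, which encodes a secreted protein of the resistin family. They were taken by symbol from the 54309 genes listed in each of 6 libraries, and transcript values were summed for each gene. All 10 were listed, and 6 of them, Csf3r, Cxcr2, Ly6g, Ltf, Lcn2 and Retnlg, had enough counts to be tested. The libraries hold poly-A RNA of cut left sciatic nerves of C57BL/6 mice aged 6 to 8 weeks, taken from the proximal stump, which stays attached to the sensory ganglia, 24 h after transection at mid-thigh. There were 3 libraries of male and 3 libraries of female mice, and every library pooled the nerves of 2 mice, so that p-values measure the spread between pools. The mice of both groups carried no engineered allele named in the labels, and both groups had the same injury. Sham-operated nerves were not analysed here, and no value below is a response to the injury.

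Neutrophils are made in the bone marrow and reach a damaged nerve through the blood within hours. Their granule proteins are made in waves as the cell matures: azurophil granule proteins such as myeloperoxidase in promyelocytes, specific granule proteins such as lactoferrin in myelocytes, and surface receptors such as Cxcr2 last. A circulating neutrophil carries the granule proteins made earlier while most of the transcripts that encoded them are gone. Transcripts for Cxcr2 thus mark mature cells, and transcripts for Mpo and Elane mark their precursors.

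The depth, as summed estimated counts, was 69848769, 56486909 and 51936195 in males 1, 2 and 3, against 49158283, 54434147 and 64802091 in females 1, 2 and 3. The 5 sex-linked genes checked, Xist and 4 Y-linked genes, followed the labels, but female 3 also held 139 counts of Ddx3y and 147 counts of Eif2s3y, where females 1 and 2 held 0, and male 1 held 193 counts of Xist. Markers of Schwann cells, the myelinating glia of the nerve, were abundant in all libraries, with a summed level of 42370 to 51333 TPM, Salmon's length-corrected share of a library, in males and 19077 to 24984 TPM in females. Of these 7 genes, 4 had an adjusted p under 0.1 (edgeR) and all 7 were higher in every male than in any female library, with 0 calls without male 3 or female 1, 1 without male 1, male 2 or female 2 and 7 without female 3. The values below are shares of a library, and the part of this difference in them was not tested. Fewer neutrophils and less RNA per neutrophil cannot be told apart in bulk tissue.

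The levels fell into an abundant and a scarce set. Compared per length, as TPM averaged over the 6 libraries, the order was Retnlg (102 ± 43.1 TPM, SD, n = 6), Csf3r (48.2 ± 22.5), Lcn2 (46.7 ± 14), Cxcr2 (26.7 ± 13.8), Ly6g (2.20 ± 1.55), Ltf (0.419 ± 0.401), Camp (0.156 ± 0.096), Ngp (0.150 ± 0.0941), Mpo (0.0907 ± 0.0447) and Elane (0.0755 ± 0.0719). Retnlg exceeded Csf3r, Lcn2 exceeded Cxcr2, Cxcr2 exceeded Ly6g and Ly6g exceeded Ltf in 6 of 6 libraries. The other neighbours were not ordered: Csf3r stood above Lcn2 in 3 libraries, Ltf above Camp in 3, Camp above Ngp in 3, Ngp above Mpo in 4 and Mpo above Elane in 3. Retnlg, Csf3r, Lcn2 and Cxcr2 together made up 98.2, 98.8 and 98.7% of the summed TPM of the 10 genes in males, against 98.9, 99.2 and 98.0% in females. Transcripts of the receptors Csf3r and Cxcr2 were present in every library. Of the granule genes, Lcn2 was as abundant as Csf3r, while Camp, Ngp, Mpo and Elane had at most 12 counts in any library.

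**Figure D1:**
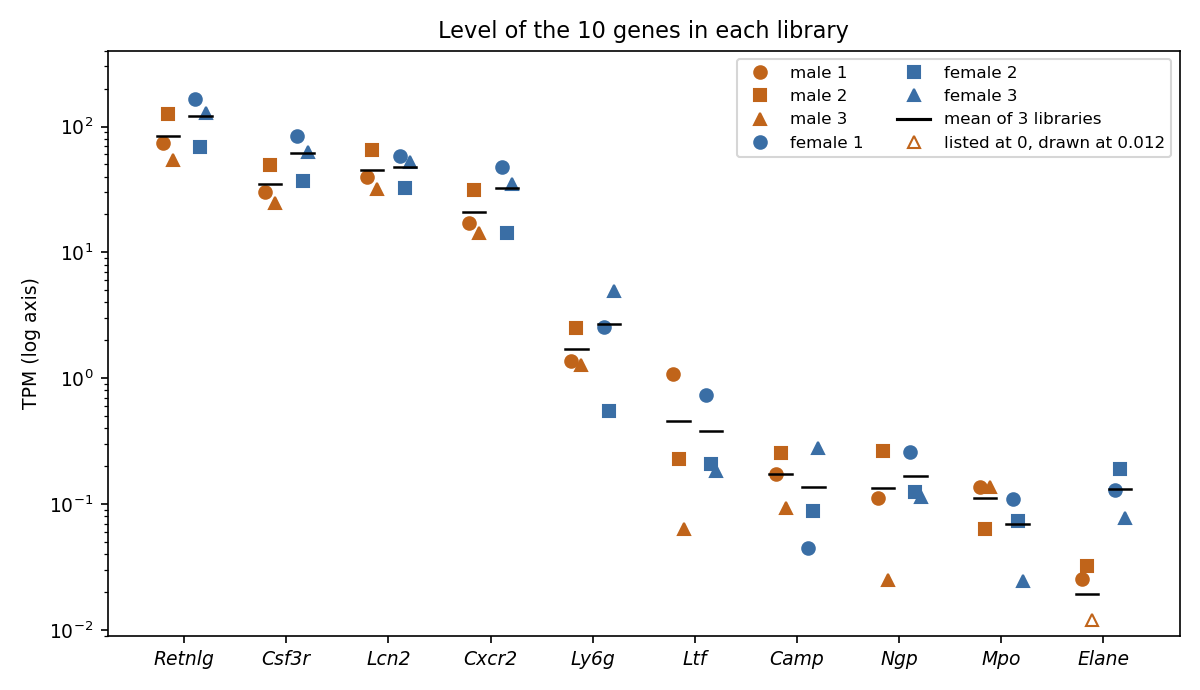
TPM of each of the 10 genes in each library, on a log axis, with males left of females, symbols for replicates and black bars for the mean of 3 libraries. Retnlg, Csf3r, Lcn2 and Cxcr2 lie above 14 TPM in every library, and Camp, Ngp, Mpo and Elane below 0.3 TPM.

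Of the surface receptors, Csf3r encodes the receptor for granulocyte colony-stimulating factor, the cytokine that drives the production and release of neutrophils (GRCm39 chromosome 4, 125918262 to 125938236, plus strand). Its level as CPM, counts scaled to the normalised size of the library, was 71.3, 106 and 51.4 in males 1, 2 and 3, against 167, 72.8 and 146 in females 1, 2 and 3. Females 1 and 3 were above all males, but female 2 lay within the male range, so the groups overlapped. Csf3r was lower in males by 0.76 ± 0.35 on the log2 scale (SE), with a 95% interval of -1.56 to 0.05 for the log2 fold change, male over female, and did not pass the threshold (edgeR quasi-likelihood test, Benjamini-Hochberg adjusted p = 0.267).

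Cxcr2 encodes the receptor for CXC chemokines such as Cxcl1, Cxcl2 and Cxcl5 that guides mature neutrophils into tissue (chromosome 1, 74193150 to 74200405, plus strand). It stood at 36.9, 70.2 and 30.5 CPM in males, against 86.2, 26.96 and 84.6 CPM in females. The lowest library was female 2, and the groups overlapped. The log2 fold change was -0.52 ± 0.46 (95% interval -1.59 to 0.55, edgeR adjusted p = 0.558).

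Ly6g encodes the lipid-anchored surface antigen by which mouse neutrophils are sorted (chromosome 15, 75027089 to 75030982, plus strand). It had 0.698, 1.35 and 0.643 CPM in males, against 1.17, 0.248 and 2.61 CPM in females, which were 47, 76 and 33 counts in males and 60, 14 and 164 counts in females. The 2 extremes of all 6 libraries were both female, 10.5-fold apart, and the log2 fold change of -0.59 ± 0.72 (95% interval -2.25 to 1.07, edgeR adjusted p = 0.678) turned to 0.34 without female 3. Ly6g belongs to a family of similar neighbouring genes. Salmon's estimates for it were whole numbers in every library, all given to the transcript Ly6g-202. Whether reads were divided between Ly6g and those genes was not tested.

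Among granule and secreted proteins, Retnlg, resistin-like gamma, was the most abundant per length (chromosome 16, 48692547 to 48694862, plus strand). It had 19.7, 35.2 and 14.2 CPM in males, against 40.7, 16.4 and 35.2 CPM in females. Male 2, female 1 and female 3 were high and the other 3 libraries low, with overlap between the groups (log2 fold change -0.42 ± 0.40, 95% interval -1.35 to 0.52, edgeR adjusted p = 0.594).

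Lcn2 encodes lipocalin 2, a specific granule protein that binds bacterial siderophores and that other cells can also make under inflammation (chromosome 2, 32274645 to 32278264, minus strand). It had 22.6, 36.3 and 17.6 CPM in males, against 33.2, 17.2 and 31.4 CPM in females. The same 3 libraries were high as for Retnlg, and the ranges nearly coincided (log2 fold change -0.10 ± 0.32, 95% interval -0.84 to 0.64, edgeR adjusted p = 0.889).

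The remaining specific granule genes lie on chromosome 9 within 1.2 Mb: Camp, which encodes the antimicrobial peptide precursor cathelicidin (109676442 to 109678685, minus strand), Ngp, which encodes neutrophilic granule protein (110248815 to 110252086, plus strand), and Ltf, which encodes the iron-binding lactoferrin (110848339 to 110871835, plus strand). Ltf had 0.460, 0.496 and 0.136 CPM in males, against 0.332, 0.425 and 0.445 CPM in females, and male 3 alone was low (log2 fold change -0.13 ± 0.49, 95% interval -1.26 to 1.0, edgeR adjusted p = 0.904). Without male 3 its log2 fold change was 0.25. In TPM, male 1 and female 1 stood apart at 1.08 and 0.740, against at most 0.230 in the other libraries, because Salmon gave 33.7 and 24.6% of their Ltf counts to the short transcript Ltf-211.

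Ngp and Camp did not pass the filter on low counts. Ngp had 6, 12 and 1 counts in males, against 10, 5 and 6 counts in females, and the groups overlapped. Camp had 5, 6 and 2 counts in males, against 1, 2 and 8 counts in females, again with overlap. Summed over the libraries and scaled to library size, Ngp was 0.881 times as high in males as in females (exact 95% interval 0.448 to 1.72) and Camp 1.15 times (0.476 to 2.84). These intervals cover counting error only.

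The azurophil granule genes were as scarce. Mpo, myeloperoxidase, which makes hypochlorous acid (chromosome 11, 87684407 to 87695239, plus strand), had 6, 6 and 4 counts in males, against 2, 7 and 3 counts in females, a ratio of 1.30 (exact 95% interval 0.576 to 3.01). Elane, neutrophil elastase (chromosome 10, 79722081 to 79724051, plus strand), had 1, 1 and 0 counts in males, against 4, 6 and 3 counts in females. Every male library lay below every female library, 2 counts in all against 13, with a male to female ratio of 0.15 (exact 95% interval for counting error 0.0164 to 0.662). The 0 counts of male 3 allow up to 0.0585 CPM (3 counts), which is above the 0.0477 CPM of female 3. Neither gene passed the filter on low counts, so neither was tested across libraries in the main edgeR fit.

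Taking the 10 genes as a group, 0 of the 6 tested passed the threshold of an adjusted p under 0.1, beside 971 of 18424 genes, or 5.27%, over the whole table. None of the 6 had an unadjusted p under 0.05, against 3811 of all genes tested (20.7%). The DESeq2 Wald test and limma-voom also called 0 of them. All 6 had a negative log2 fold change, with a median of -0.47, where the median of all genes tested was -0.03 and 53.2% were negative. These signs are not 6 independent observations, because Csf3r, Cxcr2, Ly6g, Lcn2 and Retnlg varied together over the libraries (Pearson r 0.70 to 0.98). The signs of Ly6g, Ltf and Lcn2 also changed when some single libraries were left out. In 0 of the 6 tested genes did the sexes not overlap, beside 25.5% of all genes tested. Of the 4 genes not tested, Elane did not overlap. Over the 6 tested genes, the lowest adjusted p under any alternative was 0.11, for Csf3r by DESeq2.

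The spread within a sex was the main feature of the abundant genes. From the lowest to the highest of the 3 libraries, Csf3r spanned 2.06-fold in males and 2.30-fold in females, Cxcr2 2.31-fold and 3.20-fold, Retnlg 2.48-fold in both, and Lcn2 2.06-fold and 1.93-fold. Male 2, female 1 and female 3 were the 3 highest libraries for each of these 4 genes. Male 3 was the lowest for Csf3r and Retnlg, and female 2 was the lowest for Cxcr2 and Lcn2. Across the 6 libraries the Pearson correlation of log2 CPM was 0.98 between Cxcr2 and Retnlg, 0.97 between Lcn2 and Retnlg and 0.95 between Csf3r and Retnlg, and 0.20 to 0.50 between Ltf and the others. These points share library and depth, and the correlations are descriptions over n = 6.

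**Figure D2:**
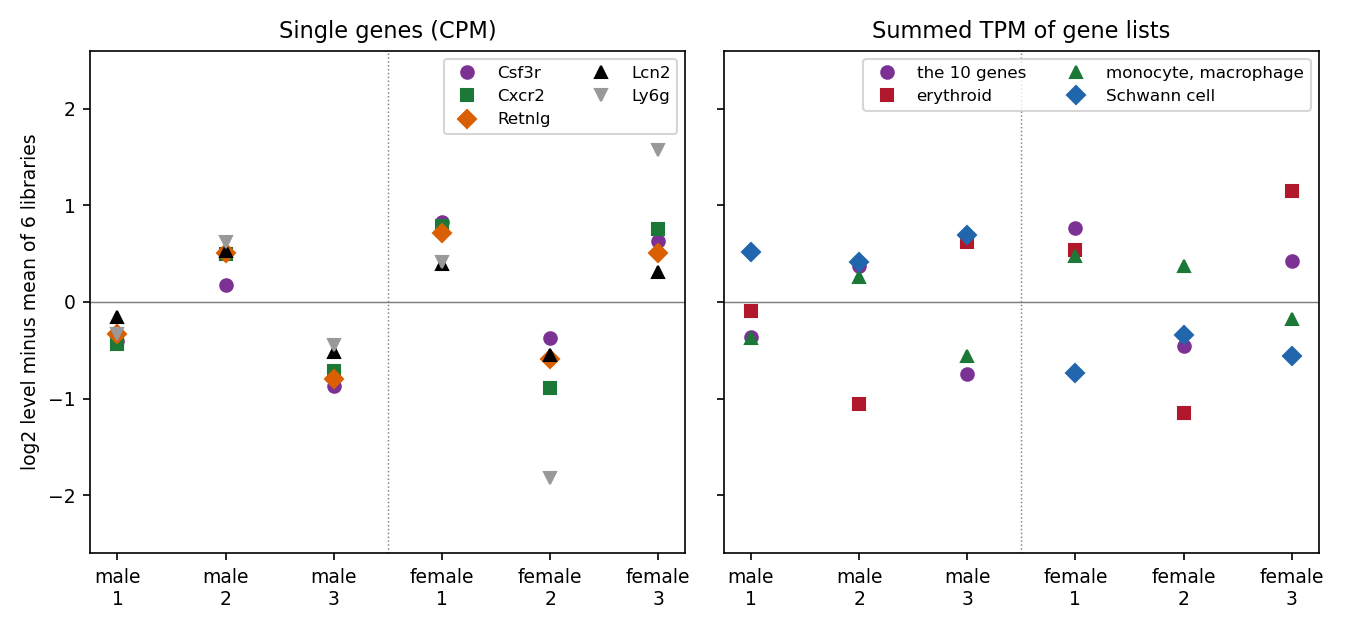
Log2 level in each library minus the mean of the 6 libraries, for 5 of the genes in CPM (left) and for the summed TPM of 4 gene lists (right), males left of females. Csf3r, Cxcr2, Retnlg, Lcn2 and Ly6g lie above their mean in male 2, female 1 and female 3 and below it in male 1, male 3 and female 2.

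Markers of other cells did not all follow these libraries. The 10 genes summed to 164, 274 and 126 TPM in males, against 359, 154 and 284 TPM in females. The 7 erythroid markers, which include the globins of red blood cells, summed to 21770, 11154 and 35650 TPM in males, against 33701, 10490 and 51558 TPM in females. Male 2, high in the neutrophil genes, was thus the lowest of the males in red cell transcripts. Male 3, low in the neutrophil genes, was high in them. Among females, female 2 was the lowest in both. The 6 platelet markers summed to 661, 1190 and 555 TPM in males, against 2188, 988 and 1089 TPM in females. These sums were highest in male 2, female 1 and female 3, as for the neutrophil genes. Most of each sum came from Pf4 (mean 900 TPM) and Ppbp (180 TPM), which were highest in the same libraries. The scarce Gp9, Gp1ba and Treml1 were instead highest in male 3, female 1 and female 3, and Itga2b was highest in female 3. Gp9 had 0.534, 0.355 and 1.09 CPM in males, against 1.54, 0.532 and 1.75 CPM in females. The platelet markers thus did not share 1 pattern. The 10 monocyte and macrophage markers summed to 1725, 2675 and 1515 TPM in males, against 3102, 2878 and 1969 TPM in females, so that female 2 was high in these and low in the neutrophil genes. The part of residual blood or of other leukocytes in the neutrophil values was not tested. Over the 13484 tested protein-coding genes that averaged at least 1 CPM, the 10 closest in profile to the mean of the 6 tested genes were Psmb2, Ube2s, Znrd2, Exosc5, Gstp1, Uxt, Hdc, Aqp9, Mrpl38 and Nufip1 (Pearson r 0.985 to 0.994, n = 6 libraries). Of these, Hdc, the enzyme that makes histamine, belongs to the list of mature neutrophil genes read below. It spanned 3.92-fold from its lowest to its highest library. Aqp9, a water and glycerol channel, spanned 2.83-fold, while the other 8 spanned at most 1.38-fold.

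The abundant genes went up and down together, and some of their ratios within a library separated the sexes in range. Lcn2 over Csf3r, in TPM, was 1.30, 1.30 and 1.28 in males, against 0.692, 0.879 and 0.843 in females. The ratio averaged 1.29 ± 0.0145 in males and 0.805 ± 0.0992 in females (SD, n = 3 each), and every male ratio lay above every female one, a difference of 0.69 on the log2 scale. Retnlg over Csf3r was 2.44, 2.51 and 2.17 in males, against 1.94, 1.86 and 2.05 in females, also without overlap. Of the 6 ratios among Lcn2, Retnlg, Cxcr2 and Csf3r, a family chosen after the values were seen, 3 did not overlap, all higher in males: these 2 and Lcn2 over Retnlg. Each of the 3 had an exact two-sided permutation p of 0.10, the smallest that 3 against 3 libraries allow, and 0.20 after Benjamini-Hochberg adjustment over the 6 ratios. In CPM, Lcn2 over Retnlg overlapped and the other 2 did not. Cxcr2 over Csf3r was 0.563, 0.626 and 0.574 in males, against 0.567, 0.389 and 0.563 in females, and female 2 alone stood apart.

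The ratios to Csf3r were also taken with its transcripts apart. Csf3r-202 (17 exons) starts 2766 bases upstream of Csf3r-201 (15 exons), and the shorter Csf3r-204 begins within the first exon of Csf3r-202. Most counts went to Csf3r-201, 97.1, 93.5 and 94.1% in males, against 81.3, 88.1 and 89.9% in females. Csf3r-202 and Csf3r-204 together took 87.3, 183 and 66.4 counts in males, against 1479, 361 and 572 counts in females. As a share of Csf3r counts this was 1.82, 3.06 and 2.52% in males, against 17.3, 8.79 and 6.24% in females, and every female library exceeded every male library. The difference was -2.03 on the log2 scale, with an exact two-sided permutation p of 0.10, again the smallest possible, and it was chosen after the values were seen. These are Salmon estimates: most reads over Csf3r lie in exons the transcripts share and are divided by its model, and 1 exon of Csf3r-202 overlaps an exon of the antisense gene Gm32908. Without these transcripts Csf3r had 69.9, 103 and 50.1 CPM in males, against 138, 66.5 and 137 CPM in females. Relative to Csf3r-201 alone, the ratios of Retnlg overlapped, with 2.65, 3.03 and 2.65 in males, against 2.88, 2.45 and 2.64 in females. Those of Lcn2 still did not, with 1.41, 1.57 and 1.56 in males, against 1.03, 1.16 and 1.08 in females.

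**Figure D3:**
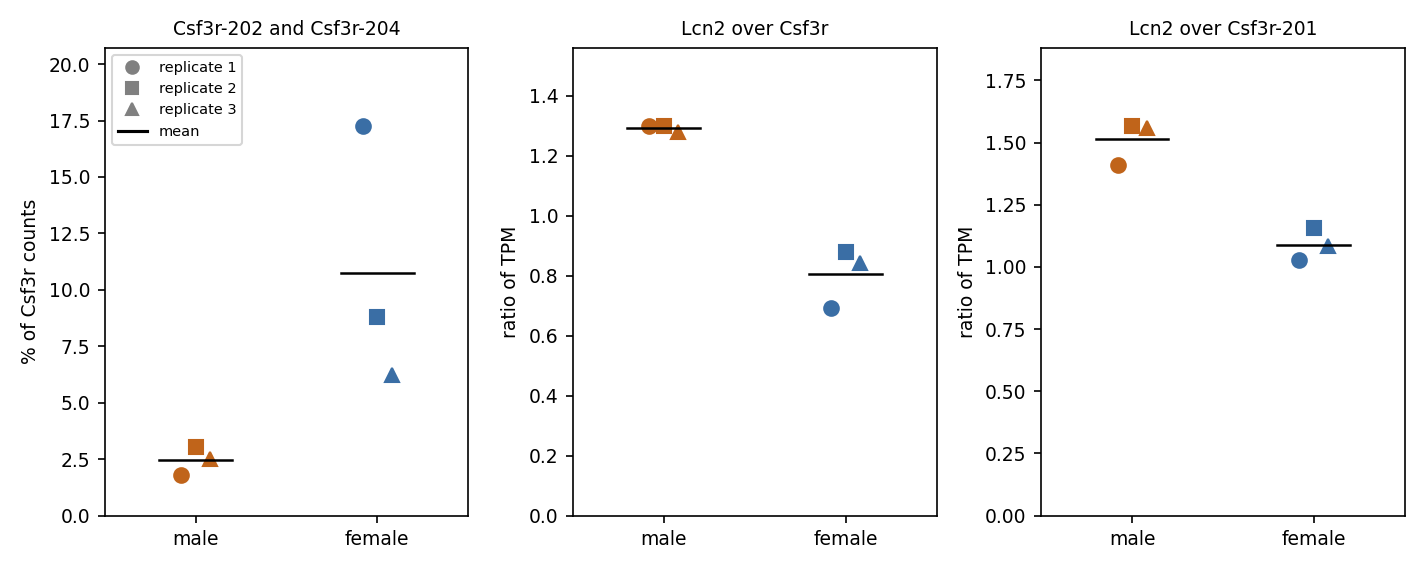
Share of Csf3r counts given to the upstream transcripts Csf3r-202 and Csf3r-204 (left, percent), TPM of Lcn2 over TPM of Csf3r (middle) and TPM of Lcn2 over TPM of Csf3r-201 (right), males left of females, 1 point a library and black bars for the mean of 3. The 3 female shares, 6.24 to 17.3%, lie above the 3 male shares, and the male ratios lie above the female ones in both other panels.

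The sequences before the starts of Csf3r-202 and Csf3r-201 are shown because the counts of the upstream transcripts differed in range between the sexes, while those of Csf3r-201 overlapped. Each is the 250 bases upstream of the start of the transcript in GENCODE M39, read 5′ to 3′ from the plus strand of GRCm39. They lie at chr4:125918069-125918318 for Csf3r-202 and chr4:125920835-125921084 for Csf3r-201. The transcripts that Salmon counted were 3481 and 3160 bases long, against 3508 and 3164 bases in M39. Whether their starts are those of M39 was not tested. Capitals mark matches on either strand to a C/EBP pattern (TTNNGNAA) or a PU.1 core (GAGGAA), named for factors of granulocyte development.
Csf3r-202: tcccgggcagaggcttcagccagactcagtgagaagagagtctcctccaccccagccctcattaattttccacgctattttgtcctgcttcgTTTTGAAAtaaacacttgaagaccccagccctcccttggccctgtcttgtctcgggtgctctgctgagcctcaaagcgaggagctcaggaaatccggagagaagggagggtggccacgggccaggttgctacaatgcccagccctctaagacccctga
Csf3r-201: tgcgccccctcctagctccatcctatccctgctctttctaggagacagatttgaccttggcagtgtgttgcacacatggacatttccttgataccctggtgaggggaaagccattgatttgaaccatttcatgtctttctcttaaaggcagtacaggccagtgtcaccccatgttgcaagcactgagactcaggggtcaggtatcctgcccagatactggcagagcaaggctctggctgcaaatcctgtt
The window of Csf3r-202 held 1 C/EBP match, its first base 158 bases before the start, and that of Csf3r-201 held neither motif.

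RefSeq promoter windows (GRCm38.p6, plus strand, 250 bases before the annotated start, same capitals) are shown for the 4 genes whose RefSeq start lay within 21 bases of the start of their main transcript, at chr1:74153744-74153993 for Cxcr2, chr16:48872358-48872607 for Retnlg, chr15:75155011-75155260 for Ly6g and chr9:111019042-111019291 for Ltf.
Cxcr2: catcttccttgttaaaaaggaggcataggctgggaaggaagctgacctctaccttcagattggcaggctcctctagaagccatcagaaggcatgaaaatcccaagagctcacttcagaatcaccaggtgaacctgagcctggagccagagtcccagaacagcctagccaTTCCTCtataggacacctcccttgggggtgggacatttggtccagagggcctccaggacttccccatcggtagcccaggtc
Retnlg: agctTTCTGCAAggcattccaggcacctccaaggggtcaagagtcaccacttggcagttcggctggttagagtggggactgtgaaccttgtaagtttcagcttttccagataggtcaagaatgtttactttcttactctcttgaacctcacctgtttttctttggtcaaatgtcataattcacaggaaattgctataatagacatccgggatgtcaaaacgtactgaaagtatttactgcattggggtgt
Ly6g: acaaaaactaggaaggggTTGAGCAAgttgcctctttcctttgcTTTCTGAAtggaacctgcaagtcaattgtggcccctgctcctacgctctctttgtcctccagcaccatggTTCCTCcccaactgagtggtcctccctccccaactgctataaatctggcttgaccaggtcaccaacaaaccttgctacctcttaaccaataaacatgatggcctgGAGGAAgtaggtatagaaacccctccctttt
Ltf: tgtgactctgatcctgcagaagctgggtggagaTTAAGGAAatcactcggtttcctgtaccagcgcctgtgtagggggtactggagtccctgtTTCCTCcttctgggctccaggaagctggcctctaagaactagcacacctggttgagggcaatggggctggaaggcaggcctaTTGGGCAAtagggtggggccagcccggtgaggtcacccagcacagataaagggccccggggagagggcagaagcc
Cxcr2 held 1 PU.1 core 81 bases before the start, Retnlg 1 C/EBP match at 246 bases, Ly6g 2 C/EBP matches at 232 and 206 bases and 2 PU.1 cores at 136 and 31 bases, and Ltf 2 C/EBP matches at 217 and 75 bases and 1 PU.1 core at 157 bases. The 10 genes, all matched in the RefSeq table, had 11 windows, 2 of them overlapping windows of Ly6g. The PU.1 core was in 8 of these windows, from 7 genes, and the C/EBP pattern in 6, from 5 genes. Of the 32851 windows of all genes, 23.3% held the PU.1 core and 36.8% the C/EBP pattern. Lcn2 also held both, at 216 and 20 bases, and neither motif was in the window of Camp. The members that moved together thus differed in the motifs their windows held. For Csf3r the RefSeq start lies 2633 bases upstream of the start of Csf3r-201, and its window held a PU.1 core 86 bases before that start, while Elane, at the other end of the range of levels, held one at 85 bases. These matches are descriptions of letters.

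Other neutrophil genes were read by the stage and granule they belong to. Of 24 genes of the mature surface and cytosol, all were tested and 23 had a negative log2 fold change (median -0.45). Of the 24, 1 passed the threshold, beside 5.27% of all genes tested. In edgeR 4 had an unadjusted p under 0.05, beside 20.7% of all genes, and in 4 the sexes did not overlap, beside 25.5%. The gene that passed was Padi4, which citrullinates histones. Padi4 had 3.92, 5.12 and 3.26 CPM in males, against 12.8, 8.26 and 6.24 CPM in females, and was lower in every male library (log2 fold change -1.15 ± 0.29, edgeR adjusted p = 0.0965). The list held 4 calls by DESeq2 and 3 with no filter on low counts, but 0 by limma-voom, with library size alone, with the transcript-length offset, and without male 1, male 3, female 1 or female 2. S100a8, a subunit of calprotectin, had 141, 251 and 71.0 CPM in males, against 165, 56.8 and 272 CPM in females, and its groups overlapped as those of Cxcr2 did. The next by p were Itgb2 (-0.84 ± 0.26, edgeR adjusted p = 0.133) and Itgam (-0.98 ± 0.33, adjusted p = 0.156), the chains of the Mac-1 integrin, which macrophages carry too.

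Of 12 further specific and gelatinase granule genes, 10 were tested, 9 had a negative log2 fold change (median -0.74) and 0 passed, while 4 had an unadjusted p under 0.05, DESeq2 called 3 and edgeR with no filter called 2. The list held 2 calls without male 2 and 1 without female 2 or female 3. Mmp9, the gelatinase of late granules and of macrophages, came closest, with 35.99, 61.5 and 31.3 CPM in males, against 170, 60.9 and 125 CPM in females (log2 fold change -1.47 ± 0.39, edgeR adjusted p = 0.103). Male 2 stood just above female 2, and the other males below all females. Mmp8, neutrophil collagenase, had 7.05, 13.5 and 5.97 CPM in males, against 23.1, 12.1 and 15.5 CPM in females (log2 fold change -0.93 ± 0.35, edgeR adjusted p = 0.190). Of the 4 other azurophil granule genes, Prtn3, proteinase 3, alone was tested, at 2.27, 4.27 and 2.85 CPM in males, against 4.82, 3.21 and 3.85 CPM in females (log2 fold change -0.34 ± 0.28, edgeR adjusted p = 0.526). Ctsg, Ms4a3 and Prss57 had at most 0.239 CPM in any library. The late myeloid factor Cebpe, which switches on specific granule genes, had 0.891, 0.904 and 0.663 CPM in males, against 1.31, 0.886 and 1.11 CPM in females, and Gfi1 and Myb, factors of earlier precursors, stayed below 0.43 CPM.

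**Figure D4:**
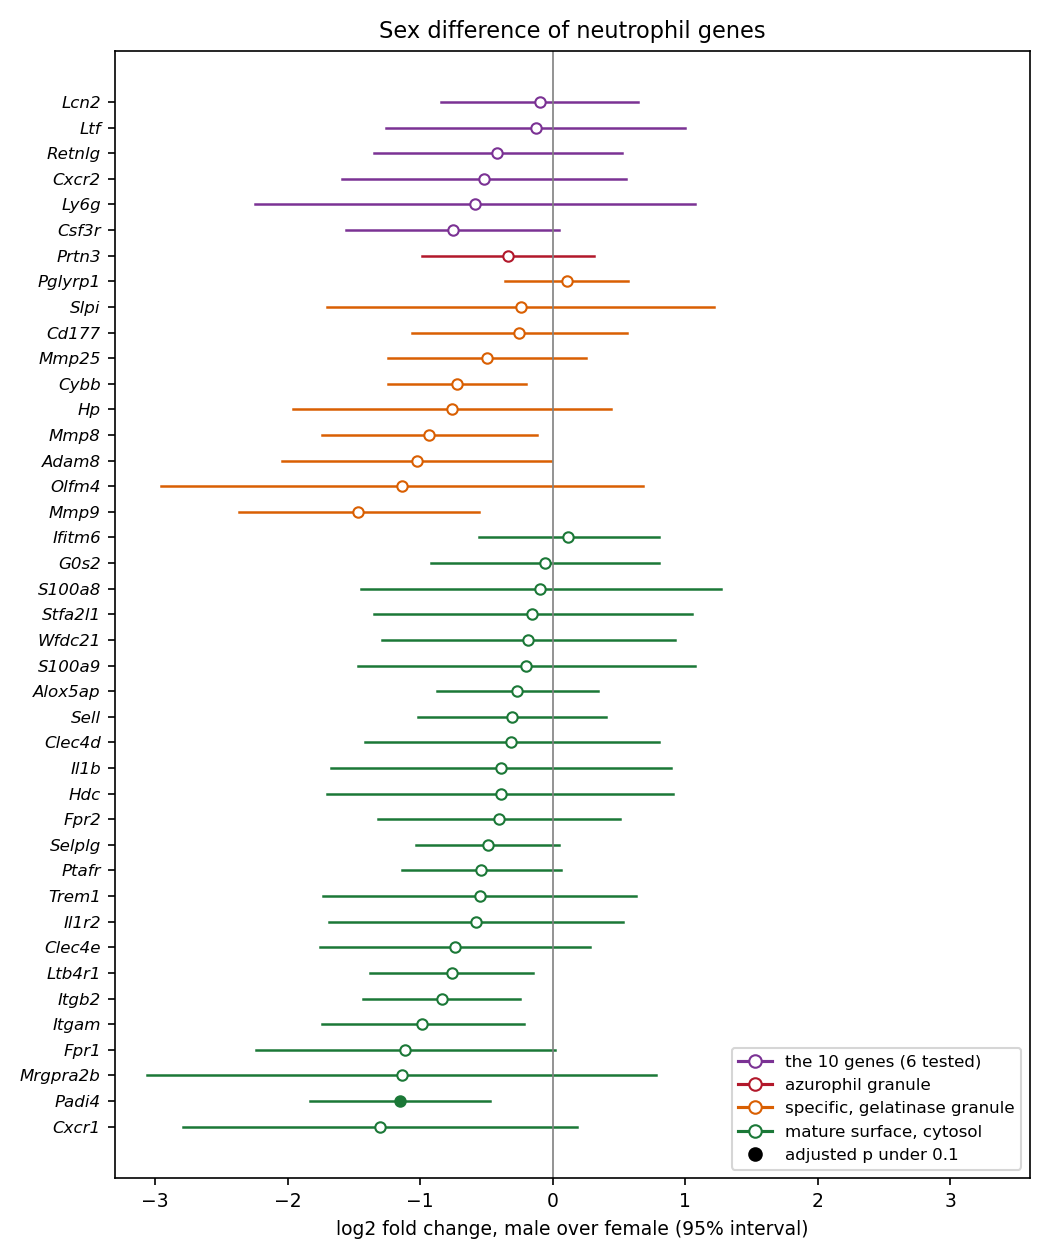
Log2 fold change, male over female, with its 95% interval (edgeR) for the tested genes of the 10 and of 3 further neutrophil lists, filled where the adjusted p was under 0.1. The intervals of the 6 tested genes at the top all include 0, and Padi4 is the filled point.

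The signals that recruit neutrophils were read next. Of 10 growth factor and attractant genes, 7 were tested and 0 passed, with 0 at an unadjusted p under 0.05 in edgeR and 0 by DESeq2, and all 7 had a negative log2 fold change (median -0.25). Without female 3 the list held 1 call. Csf3, the ligand of Csf3r, had 5.08, 5.25 and 2.24 CPM in males, against 0.762, 0.532 and 13.6 CPM in females. Female 3 was the highest library and females 1 and 2 the lowest, so that female 1, the highest in Csf3r, was low in its ligand. Cxcl2, a ligand of Cxcr2, had 76.2, 96.8 and 9.98 CPM in males, against 43.0, 38.4 and 252 CPM in females. Cxcl5, another ligand, had 191, 145 and 71.8 CPM in males, against 125, 60.7 and 290 CPM in females, and for both ligands female 3 was again the highest. Of 8 vessel adhesion genes 0 passed (3 at an unadjusted p under 0.05 in edgeR, 1 by DESeq2, 1 without male 1 and 2 without female 3). The 3 were Icam1 and Pecam1 (-0.43 ± 0.17), lower in males, and Ackr1 (0.47 ± 0.20), higher in males. Icam1, a ligand of the neutrophil integrins, had 36.8, 25.0 and 24.5 CPM in males, against 39.5, 38.0 and 45.2 CPM in females, lower in every male library (log2 fold change -0.51 ± 0.17, edgeR adjusted p = 0.162).

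Markers of cells that share some of these transcripts were read beside them. Of the 10 monocyte and macrophage markers 1 passed, Cx3cr1, higher in males (log2 fold change 0.82 ± 0.16, edgeR adjusted p = 0.0568). In the list 8 were negative (median -0.40), and 4 had an unadjusted p under 0.05 in edgeR, beside 20.7% of all genes tested. The next by p were Mrc1 (-1.27 ± 0.34, edgeR adjusted p = 0.104) and Lyve1 (-0.94 ± 0.26, adjusted p = 0.108), both lower in every male library. The list held 0 calls without male 1, male 3 or female 1, 3 without male 2, 5 without female 3, and 4 by DESeq2 or with no filter. Of 8 eosinophil, basophil and mast cell markers 5 were tested and 1 passed, Siglecf, lower in males (-1.38 ± 0.35, edgeR adjusted p = 0.093). It did not pass by limma-voom, with library size alone, or without male 1, male 3, female 1 or female 2. Siglecf was the only negative one of the 5 (median 0.54). The mast cell genes Cpa3, Cma1, Tpsb2 and Mcpt4 had log2 fold changes of 0.49, 0.54, 0.61 and 0.80, higher in males, and did not pass. The eosinophil peroxidase gene Epx was at 0 counts in every library. Of the 6 general leukocyte genes 0 passed in edgeR, 1 had an unadjusted p under 0.05 and 1 passed by DESeq2 or with no filter, 2 without male 2 and 1 without female 3, and all 6 were negative (median -0.30).

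Markers of other tissues differed between the libraries as well. Of 7 central nervous tissue markers, 6 passed higher in males (edgeR, 3 calls without male 3, 0 without female 1, and 2 with the stricter filter of 1 CPM in 3 libraries). Mobp, an oligodendrocyte myelin gene, had 6.32, 18.4 and 19.4 CPM in males, against 0.449, 0.709 and 0.620 CPM in females, and every male library was above every female one. The 6 skeletal muscle markers summed to 6.69, 5.08 and 486 TPM in males, against 236, 385 and 21.2 TPM in females, and of the 5 tested 1 passed, Myh4, lower in males, but not by limma-voom or without male 3 or female 1. The 4 adipocyte markers summed to 61.9, 354 and 160 TPM in males, against 936, 577 and 106 TPM in females, all 4 with a negative log2 fold change (median -1.42), and 0 passed in edgeR or by DESeq2, with 1 at an unadjusted p under 0.05 and 1 call with no filter or without female 3. Male 3 and females 1 and 2 were thus the libraries rich in muscle transcripts, and male 2 and females 1 and 2 those rich in adipocyte transcripts. Female 1 in both sets, and male 2 in the adipocyte set, were also among the 3 libraries rich in neutrophil transcripts. The part of these tissues in the neutrophil values was not tested.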

How the data were processed

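Poly-A RNA of 3 male and 3 female pools of 2 nerves was sequenced from stranded libraries. The submitters' notes name Trimmomatic 0.39, Salmon 1.5.2 and MultiQC 1.9. The authors deposited, for each transcript, Salmon's estimated count, which is not normalised, its TPM and its effective length; reads that fit several transcripts are divided by Salmon's model. The study's methods name a GENCODE release on GRCm39. Gene positions here come from GENCODE M39 on that assembly.

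Estimated counts were summed for each gene and rounded. In R 4.3.3, genes were filtered by filterByExpr of edgeR 4.0.16, scaled by TMM and fitted with sex as the only term; the quasi-likelihood F test covered all 18424 genes that passed. Adjustment was by the Benjamini-Hochberg method, and the threshold was an adjusted p under 0.1, as in the study. CPM uses TMM library sizes. The SE was the log2 fold change over the square root of F. Ratios between genes were compared by exact permutation (scipy), and count ratios have exact binomial 95% intervals. Depth is given with the results.

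The 10 genes and the lists were chosen with earlier results of these data known. The text names every one of the 10 and the 10 genes most alike in profile. Of the other lists it names some of the called genes and some of those with the smallest p, and of some lists no gene. S100a8, Csf3, Cxcl2, Cxcl5, Prtn3, Cebpe, Gfi1, Myb, Epx, Ctsg, Ms4a3 and Prss57 were named for their roles. Alternatives were DESeq2 1.42.0, limma-voom (limma 3.58.1), other normalisations and filters, a transcript-length offset, a replicate block, a threshold of 0.05, and leaving out each library in turn. No library was a copy of another.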

Additional observations from a re-analysis of the deposited data

How the results depend on the processing

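None of the genes tested in the main fit passed the threshold under any of the 15 alternatives, though the stricter filter left Ltf out. Mpo, Elane, Ngp and Camp had failed the count filter of the main fit. A gene left out by a filter cannot be called, so the alternatives do not show how stable these genes are. Csf3r, Cxcr2 and Retnlg kept a negative log2 fold change throughout, with -1.04 to -0.52, -0.94 to -0.28 and -0.83 to -0.17 when each library was left out. The sign was not stable for the others: Ly6g ranged from -1.08 to 0.34, Ltf from -0.38 to 0.25 and Lcn2 from -0.41 to 0.11 with a library left out, and Ltf was 0.36 with the transcript-length offset. Lcn2 was 0.11 without male 3, 0.07 without female 1 and 0.02 without female 3. Of all genes tested, 971 passed; this was 1617 with no filter, 2397 by DESeq2, 284 at an adjusted p under 0.05, 56 with the replicate block and 1 (without female 1) to 2612 (without female 3) with a library left out. Male 3 left out gave 7 and female 2 left out gave 327. The other lists held 19 calls, of which 6 were central nervous tissue markers, 5 the sex check and 4 Schwann cell markers, against 31 by DESeq2, 11 at an adjusted p under 0.05, 9 with the replicate block and 1 to 33 with a library left out. Replicate numbers did not pair the samples: deviations of same-numbered libraries correlated at -0.04, -0.30 and -0.295, and the block called 0 of the 6 tested genes. The median log2 fold change of all genes tested was -0.03 as reported and -0.07 with library size alone. The causes were not tested. Below 0.5 CPM a library held at most 31 counts of any of the 10 genes, which limits Ltf, Ngp, Camp, Mpo and Elane.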
